A study of Rattus norvegicus with 22 samples.

Results

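The let-7 and miR-98 family was described in small RNA libraries from rat hippocampus. Its members were taken by name alone, as every deposited microRNA (miRNA) name beginning with let-7 and every name with the number 98, on either arm of the hairpin and for any gene copy. This gave 21 of 468 distinct names, on 22 of 484 deposited rows, since let-7f-5p stands on 2 rows. All rats were male Long Evans, a pigmented outbred laboratory strain, and 14 weeks old. The CPF group (n = 11 libraries) had received chlorpyrifos, an organophosphate insecticide that blocks the enzyme acetylcholinesterase, by daily injection under the skin at 10 mg/kg body weight for 21 days. The control group (n = 11) had received the peanut oil vehicle over the same 21 days. RNA was prepared from the CA1 region, per the labels' protocols, which describe some rats as trained for fear conditioning and others as untrained without saying which library came from which. The labels give no animal identifiers, so a p-value here reflects how libraries vary, and part of that may be technical. Deposited names carry the rat prefix, as in rno-let-7a, rno-let-7b-5p and rno-let-7c, which is left off in most of what follows.

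The let-7 miRNAs are among the most conserved in animals and build up as cells stop dividing and differentiate. They pair through a shared seed near their 5′ end with transcripts of growth and stem cell genes such as Hmga2, Myc and the Ras genes, and repress them. The RNA-binding proteins Lin28a and Lin28b block the processing of let-7 hairpins in early cells, and mature neurons are known for high let-7. The strand from the 5′ side of the hairpin is usually the one loaded into the silencing complex, and the 3′ strand is usually degraded.

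RefSeq's table (build GRCr8) held a mature sequence for 18 of the 21 names. let-7a, let-7c and let-7c-1-3p are named only. The 5′ forms are shown first because they differ from each other by few bases, at 1 to 6 positions over the 28 pairs (median 3). Capitals mark the seed, bases 2 to 8.
let-7a-5p: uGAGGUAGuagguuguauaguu
let-7c-5p: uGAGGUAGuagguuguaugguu
let-7e-5p: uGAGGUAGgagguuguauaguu
let-7f-5p: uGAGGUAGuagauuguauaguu
let-7b-5p: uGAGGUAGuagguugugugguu
let-7d-5p: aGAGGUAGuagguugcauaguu
miR-98-5p: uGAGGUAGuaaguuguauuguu
let-7i-5p: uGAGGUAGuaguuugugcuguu

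All 8 of these 5′ forms are 22 bases long and carry the seed GAGGUAG. Counted from 1 at the 5′ end of let-7a-5p, 1 substitution each separates let-7c-5p (A19G), let-7e-5p (U9G) and let-7f-5p (G12A). let-7b-5p differs by A17G and A19G, let-7d-5p by U1A and U16C, and miR-98-5p by G11A and A19U. let-7i-5p stands farthest from let-7a-5p, with G12U, A17G, U18C and A19U. The sequences of let-7a-5p, let-7c-5p and let-7f-5p are each made from 2 genes in the table, and those of let-7b-5p, let-7d-5p, let-7e-5p, let-7i-5p and miR-98-5p from a single gene.

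The 3′ arms carry other seeds, of which UAUACAA is shared by 5 names. The 3 arms with enough reads to compare are shown because 2 of them were found near the level of their 5′ partner.
let-7b-3p: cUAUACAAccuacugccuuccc
let-7d-3p: cUAUACGAccugcugccuuucu
let-7i-3p: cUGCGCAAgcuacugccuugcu

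A name outside the family, miR-3596a, bears on the values of let-7a. Its sequence is the reverse complement of let-7a-5p, and its gene overlaps that of let-7a-2. Capitals mark the bases that complement the let-7 seed.
miR-3596a: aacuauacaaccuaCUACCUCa

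The files give reads per 1000000 reads assigned to miRNA names (RPM). Low values were multiples of a step in each library, which was taken as 1 read and put the depth at 47843 to 94980 miRNA reads. A read was thus worth 10.5 to 20.9 RPM, and 3 reads, used as the floor below which a level is not read, 31.6 to 62.7 RPM. The floor and the counting SDs given below cover counting error only, since reads without molecular identifiers are not independent molecules, while the limma intervals rest on the spread between libraries. Control replicate 2 was deposited with 448 rows and lacks 4 member names, which were counted as missing there.

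The family's share of all RPM was 3.35 ± 0.299% in the control group and 3.19 ± 0.275% in the CPF group (mean ± SD over 11 libraries). Its summed level ran from 28315 to 37944 RPM in control and from 27938 to 36909 RPM in CPF libraries, with medians of 34755 and 31044 RPM. The groups overlapped over most of their ranges. A single member carried most of the family's RPM. rno-let-7i-5p made up 90.9 ± 0.516% of the family's RPM in control and 90.3 ± 0.766% in CPF libraries. The other 20 names together reached 3037 ± 314 RPM in control and 3080 ± 318 RPM in CPF libraries. These are levels per name, not divided by length, and the mature forms are 21 or 22 bases long. They are shares of assigned reads, not of molecules. Among the 8 listed 5′ forms, let-7i-5p differs from the others at 3 to 6 positions, while let-7a-5p and let-7c-5p differ at 1. RefSeq also holds a let-7g gene, but no deposited name is let-7g, so its sequence was not compared here. Whether let-7g reads were counted under another name, let-7i-5p included, is unknown and was not tested. How reads matching several names were assigned is unknown here, and its part in these shares was not tested.

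let-7i-5p, made from a gene with no other miRNA gene near it in RefSeq, stood in control libraries at 25541 RPM in the lowest, 31908 in the median and 34139 in the highest. In CPF libraries it stood at 25405, 28186 and 33662 RPM. The 2 lowest libraries of all were replicate 1 of each group, and 2 of 11 CPF libraries lay above the control median. The mean was 30474 ± 2734 RPM in control and 28802 ± 2556 RPM in CPF libraries, or about 2157 and 2136 reads. Counting alone would give an SD of 659 and 632 RPM, so most of the spread between libraries was not counting error. The fold change was 0.945 (95% CI 0.870 to 1.03), and the log2 fold change of -0.08 did not pass (SE 0.0585, limma adjusted p = 0.806). In the 13 libraries whose reads could be recovered the sign turned with edgeR's TMM scaling (0.033) and limma-voom (0.033), and stayed with edgeR's RLE (-0.016), DESeq2 (-0.005) and limma (-0.017).

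rno-let-7f-5p was the second member in order and the last that stood clear of the next. It ranged from 765 to 1421 RPM in control libraries with a median of 1028, and from 705 to 1412 in CPF libraries with a median of 1060. The means were 1046 ± 172 and 1095 ± 205 RPM, or 74.4 and 80.1 reads (fold 1.04, 95% CI 0.892 to 1.22, limma adjusted p = 0.954). let-7i-5p was 27.7-fold above let-7f-5p, and let-7f-5p was 3.31-fold above let-7c, each in 22 of 22 libraries and with ranges that did not touch.

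**Figure D1:**
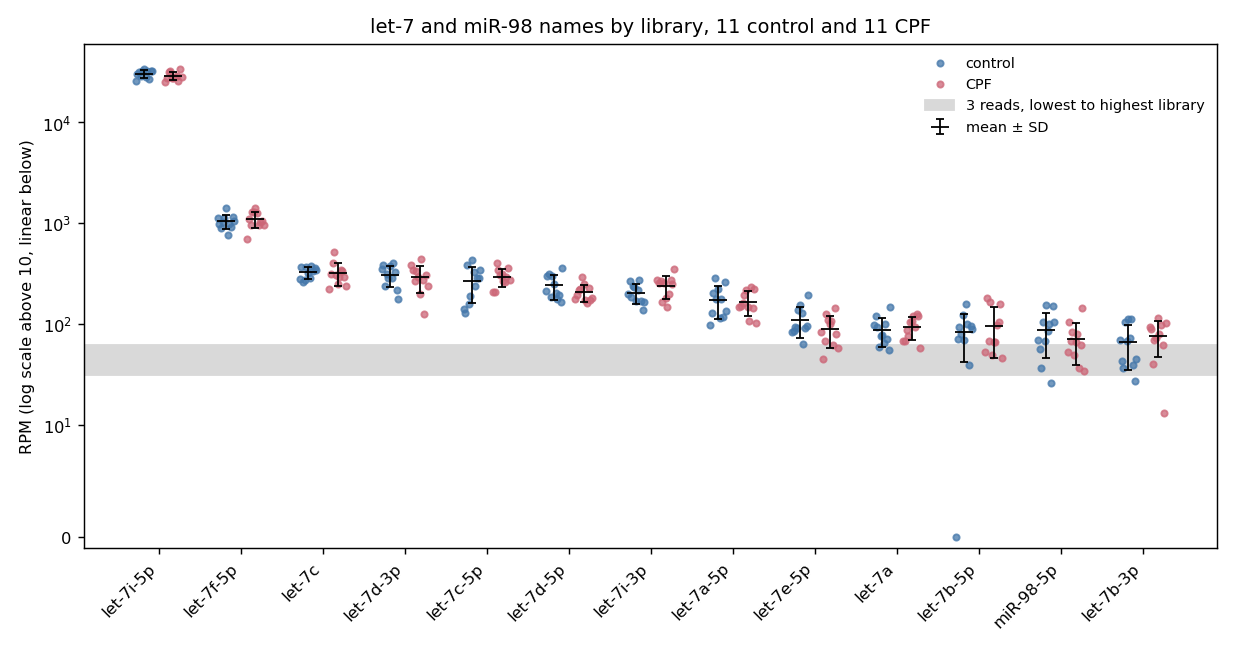
Level of the 13 names that averaged at least 3 reads in a group, by library (points), with mean ± SD (black) for 11 control and 11 CPF libraries. The y axis is RPM, logarithmic above 10 and linear below, and the grey band is the value of 3 reads across libraries. let-7i-5p lies 27.7-fold above let-7f-5p, the groups overlap for every name, and 1 control library has let-7b-5p at 0.

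Below let-7f-5p the levels formed a gradual series in which no neighbour had a range separate from the next. By the mean of both groups the order was let-7c (323 RPM), let-7d-3p (300), let-7c-5p (281), let-7d-5p (225), let-7i-3p (222), let-7a-5p (171), let-7e-5p (100.3), let-7a (90.7), let-7b-5p (90.0), miR-98-5p (79.4) and let-7b-3p (71.7). The upper name of a neighbouring pair was the higher in 16 to 18 of 22 libraries at only 3 steps of this series. These were let-7c-5p over let-7d-5p (17), let-7i-3p over let-7a-5p (16) and let-7a-5p over let-7e-5p (18). At the other 7 steps it was higher in 9 to 12 of 22. let-7b-3p was then higher than let-7e-3p in 22 of 22 libraries, the latter being under the floor.

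The remaining 8 names averaged under 3 reads in both groups. They were let-7e-3p, let-7a-1-3p, let-7c-2-3p, miR-98-3p, let-7c-1-3p, let-7f-1-3p, let-7a-2-3p and let-7f-2-3p, all of them 3′ arms. None held more than 3 reads in any library. let-7c-2-3p was detected in 2 of 10 control and 8 of 11 CPF libraries, never above 2 reads, with means of 4.06 ± 9.20 and 12.3 ± 9.98 RPM. Without the filter on low values it was the 1 member of 20 at an unadjusted p under 0.05, against 5.5% of 418 miRNAs, and it did not pass (limma adjusted p = 0.590). The RefSeq sequence of let-7c-2-3p is the same as that of let-7a-1-3p, so reads of these 2 names cannot be told apart. let-7a-1-3p was at 0 in 3 of 11 control and 6 of 11 CPF libraries, with means of 10.0 ± 6.47 and 8.29 ± 10.7 RPM. How reads were divided between the 2 names is unknown here. let-7f-2-3p, the passenger strand of the let-7f gene that lies beside miR-98, had 0 reads in 21 of 21 libraries that list it, which allows up to 31.6 to 62.7 RPM per library.

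The central comparison asked whether family members differed after 21 days of CPF. No member passed: limma called 0 of 14 tested (names reaching 10 RPM in 11 or more libraries), against 0.733% of all 273 miRNAs tested, or 2. At an unadjusted p under 0.05 the counts were 0 of 14 members and 18 of 273 miRNAs (6.59%). Fold changes lay above 1 for 6 of the 14 and below 1 for 8, with a median on the log2 scale of -0.04, beside 145 above, 128 below and a median of 0.02 over all 273. The groups overlapped for 14 of 14, a count not taken over all 273 and so not shown to be particular to the family. Adjusted p-values ran from 0.806 to 0.974. In the 13 libraries with recovered reads 0 of the 8 members tested were called with edgeR's TMM and with limma-voom, beside 1.4% of 143 miRNAs. With DESeq2 0 of 17 members were called, beside 0.253% of 396 miRNAs.

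**Figure D2:**
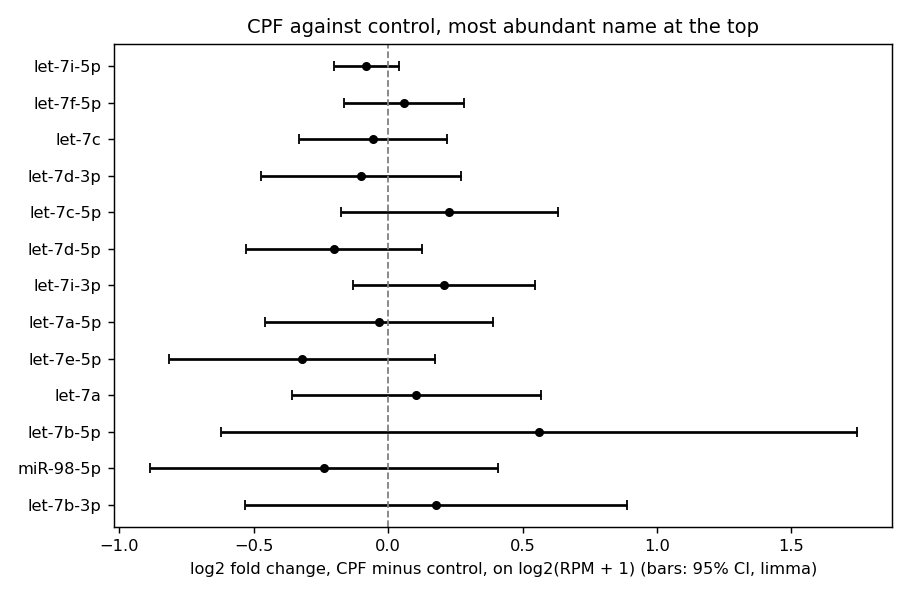
log2 fold change of CPF against control (points) with its 95% CI from limma (bars) for the 13 tested names above the floor, ordered by level with let-7i-5p at the top. Every interval includes 0, and the narrowest is that of let-7i-5p (-0.20 to 0.04) and the widest that of let-7b-5p (-0.62 to 1.75).

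The size of change that the intervals allowed differed between members. For let-7i-5p the interval ended at folds of 0.870 and 1.03, and for let-7c at 0.794 and 1.16. let-7e-5p, from a cluster with miR-99b and miR-125a, averaged 111 ± 38.6 RPM in control and 89.4 ± 31.2 in CPF libraries, with a fold of 0.801 (95% CI 0.569 to 1.13). miR-98-5p, encoded beside let-7f-2, averaged 87.5 ± 41.5 and 71.3 ± 32.2 RPM, with a fold of 0.847 (95% CI 0.541 to 1.33). Both intervals are wider than that of let-7i-5p and include 1.

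The 3 members with the smallest p were let-7i-5p, let-7e-5p and let-7i-3p. let-7i-3p, the passenger strand of the dominant member, ranged from 137 to 277 RPM in control libraries with a median of 197. In CPF libraries it ranged from 147 to 356 RPM with a median of 255, and 8 of 11 lay above the control median. It averaged 205 ± 45.5 RPM with vehicle and 239 ± 60.2 with CPF, a log2 fold change of 0.21 (SE 0.165) that did not pass (limma adjusted p = 0.806). Counting alone would give SDs of 53.9 and 57.5 RPM, so the spread within each group was about that of counting.

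let-7b-5p had the highest log2 fold change, 0.56, and it rested on 1 library. Control libraries ran from 0 to 159 RPM with a median of 89.8, and CPF libraries from 45.9 to 180.1 with a median of 67.6, so the CPF median was the lower. The 0 was control replicate 1. Without it the log2 fold change was -0.02 (limma adjusted p = 0.993). The means over all libraries were 83.8 ± 41.4 and 96.2 ± 50.3 RPM. Its 3′ partner let-7b-3p averaged 66.7 ± 31.7 with vehicle and 76.6 ± 29.8 with CPF, and its log2 fold change of 0.18 did not pass (limma adjusted p = 0.954).

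let-7d, made from a gene beside let-7a-1 and let-7f-1, was measured on both arms. let-7d-5p ranged from 165 to 359 RPM in control and from 161 to 294 in CPF libraries, with medians of 211 and 195. let-7d-3p ranged from 180 to 403 and from 125.4 to 441 RPM, with medians of 316 and 294. Neither arm differed past the threshold (fold 0.870, 95% CI 0.693 to 1.09, and 0.933, 95% CI 0.720 to 1.21).

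The arms of let-7i, let-7d and let-7b were compared within libraries as the log2 ratio of the 5′ to the 3′ level. For let-7i the 5′ arm was higher in 22 of 22 libraries, by 7.23 ± 0.36 on the log2 scale in control and 6.94 ± 0.42 in CPF libraries, a ratio of mean levels of 133. For let-7d the 3′ arm was the higher in 16 of 22 libraries, the 5′ arm in 5 and 1 was tied, with log2 ratios of -0.35 ± 0.62 and -0.45 ± 0.65. For let-7b the 5′ arm was higher in 11, the 3′ arm in 9 and 2 were tied (-0.06 ± 2.16 and 0.32 ± 1.33). Among 5 ratios tested between groups, those of let-7a and let-7c included, none passed. The smallest p was that of let-7i, with a difference of -0.29 (permutation p = 0.0977, adjusted p = 0.489). For let-7d the difference was -0.10 (permutation p = 0.716, adjusted p = 0.716), and for let-7b 0.38 (permutation p = 0.682, adjusted p = 0.716). The let-7b difference was -0.23 without control replicate 1, and the let-7d difference 0.03 without control replicate 11.

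let-7a and let-7c each stand under a name with an arm and a name without. let-7a held the same value as miR-3596a in 22 of 22 libraries. In 13 of 22 libraries that value was a whole number of reads plus 0.5, which occurred for no other member at levels under 60 reads. No source used here says whether counting used strand, so reads from the 2 strands cannot be told apart under these names. miR-3596b, whose gene overlaps let-7d, miR-3596c, whose gene overlaps let-7e, and miR-3596d were at 0 in 22 of 22 libraries.

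let-7a ranged from 54.9 to 149.7 RPM in control and from 57.4 to 125.4 in CPF libraries, with medians of 77.4 and 92.8. let-7a-5p ranged from 98.6 to 290 and from 103 to 235 RPM, with medians of 176 and 150.1. As listed, let-7a was the higher of the pair in 2 of 22 libraries, let-7a-5p in 19, and 1 was tied. Whether reads were shared out between let-7a and miR-3596a was not tested. The level of let-7a, its order and its ratio to let-7a-5p depend on that unknown rule. The log2 ratio of let-7a to let-7a-5p was -0.97 ± 0.82 in control and -0.83 ± 0.47 in CPF libraries (difference 0.14, permutation p = 0.632, adjusted p = 0.716).

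let-7c ranged from 260 to 378 RPM in control and from 221 to 515 in CPF libraries, with medians of 339 and 306. let-7c-5p ranged from 128 to 436 and from 210.2 to 405 RPM, with medians of 287 and 293. The spread of let-7c in control libraries, an SD of 42.7 RPM, was below the 67.9 RPM that counting alone would give, while that of let-7c-5p (104) was above its 62.2 RPM. The log2 ratio of let-7c to let-7c-5p was 0.39 ± 0.66 in control and 0.10 ± 0.32 in CPF libraries (difference -0.28, permutation p = 0.215, adjusted p = 0.537). let-7c was higher in 13 libraries, let-7c-5p in 6, and 3 were tied. The rule by which reads were divided between such names is unknown here, so the split is uncertain.

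The 2 rows of let-7f-5p, whose sequence has 2 genes in the table, were near each other. The first averaged 520 ± 114 RPM in control and 514 ± 109 in CPF libraries, and the second 526 ± 117 and 582 ± 117. The first row was the higher in 5 of 11 control and 2 of 11 CPF libraries, and the rows do not say which gene each stands for.

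**Figure D3:**
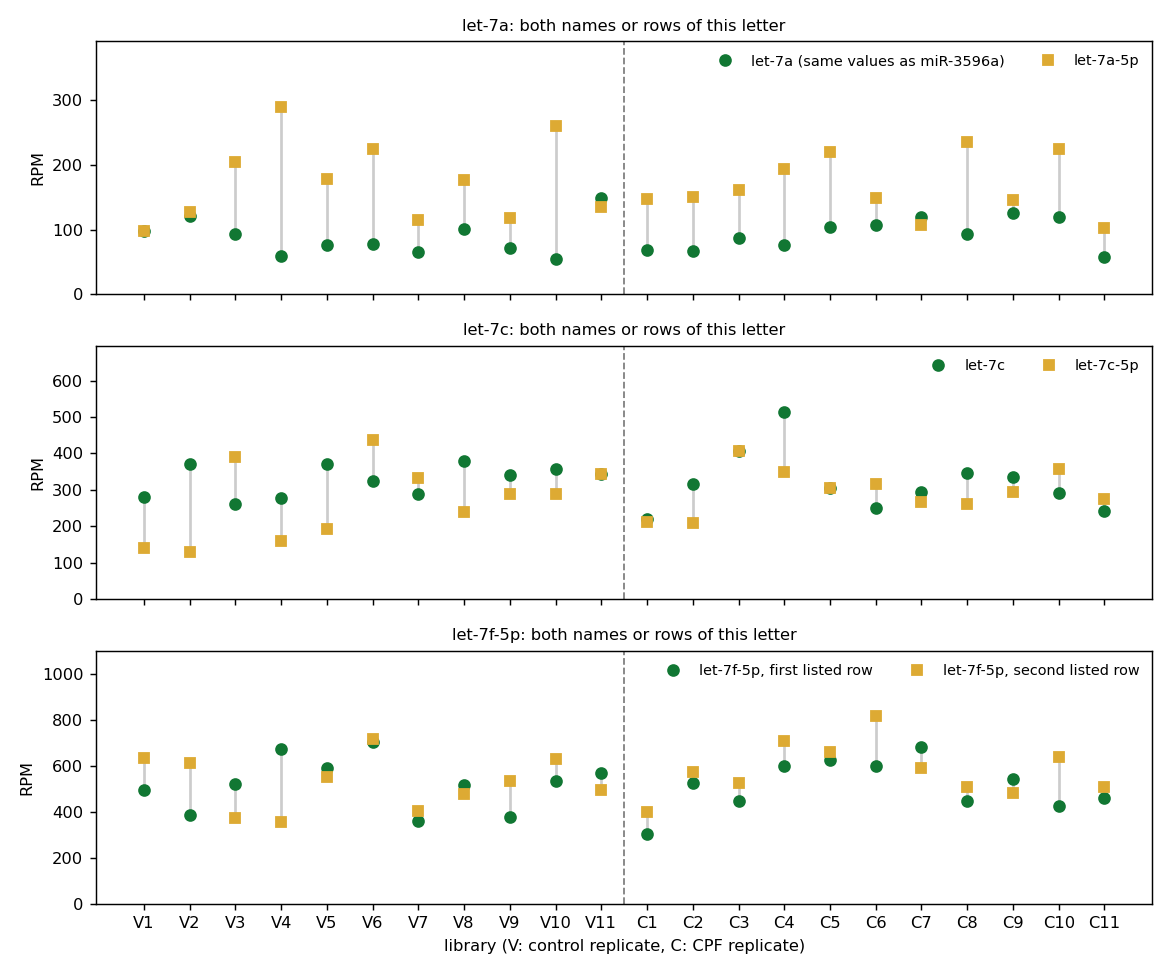
RPM in each library under both names of let-7a (top) and let-7c (middle) and on both rows of let-7f-5p (bottom), with control replicates (V) left and CPF replicates (C) right of the dashed line. As listed, with the same values as miR-3596a, let-7a lies below let-7a-5p in most libraries (19 of 22) and is above it in 2. The 2 names of let-7c and the 2 rows of let-7f-5p change order from library to library.

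Several let-7 genes share clusters with the miR-99, miR-100 and miR-125 families, whose miRNAs come from the same stretch of genome. In RefSeq let-7a-2 lies beside miR-100, let-7c-1 beside miR-99a and let-7e beside miR-99b and miR-125a. Of 7 names from these neighbours 5 were tested and none passed, with log2 fold changes below 0 for 5 of 5 (median -0.07, lowest limma adjusted p = 0.911). Over all miRNAs tested, 128 of 273 lay below 0. miR-125a-3p, 1 of the 5, averaged 1.45 and 0.909 reads and so was under the floor. The 3 names of miR-125b, a relative of miR-125a whose genes lie outside the 10 kb window, did not pass either (lowest limma adjusted p = 0.806). Of these, 1 lay above 0 (miR-125b-1-3p, also under the floor) and 2 below. Both sets together had 7 of 8 tested names below 0. miR-99a-5p averaged 8230 ± 579 RPM in control and 8060 ± 687 in CPF libraries, so it was far above its cluster mate let-7c in both groups. miR-99b-5p (5235 ± 783 and 4978 ± 226 RPM), miR-125a-5p (2855 ± 465 and 2685 ± 302) and miR-100-5p (2609 ± 205 and 2501 ± 297) likewise stood far above let-7e-5p and let-7a.

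The miRNA whose level followed let-7i-5p most closely was miR-9a-5p, a miRNA of neural progenitors and neurons. Over 22 libraries and 250 miRNAs compared, its Spearman correlation with let-7i-5p was 0.70 (Pearson 0.73). It was 0.56 within control and 0.70 within CPF libraries, and 0.66 without control replicate 7 and CPF replicate 1, the 2 libraries farthest from the median of miR-9a-5p. Next came miR-101a-3p (0.68), miR-218a-5p (0.61), miR-3572 (0.59, at 0.727 reads a library and so under the floor) and miR-19b (0.57). The summed family gave the same 5 names in the same order, since let-7i-5p makes up most of it. Both values of a point come from the same library and the same total, and these miRNAs were the highest of 250, so the correlations are a description.

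**Figure D4:**
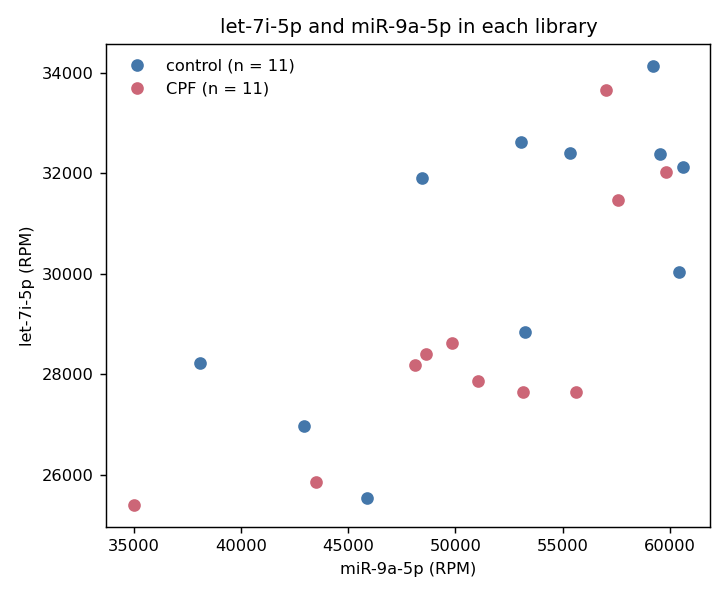
let-7i-5p against miR-9a-5p, both in RPM, with a point for each of 11 control and 11 CPF libraries. Libraries low in miR-9a-5p were low in let-7i-5p (Spearman 0.70 over 22 libraries), and the groups intermix. Axes do not start at 0.

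Sums over marker lists of other cell types were compared between libraries. The 8 names of choroid plexus and ependyma summed to 580 to 1083 RPM in control libraries. They summed to 635 to 8005 RPM in CPF libraries, where 6 of 11 lay above the highest control and replicates 7, 8 and 9 were highest. Without these 3 libraries the CPF range was 635 to 1221 RPM, and let-7i-5p had a log2 fold change of -0.06 (limma adjusted p = 0.979), with 0 of 14 members called. Neuron markers (17 names, 53864 to 78083 RPM in control, 50390 to 77977 in CPF), oligodendrocyte markers (4 names, 47329 to 90059 and 33453 to 81828 RPM) and vessel wall and muscle markers (8 names, 222253 to 283859 and 221172 to 313435 RPM) overlapped between groups. Even so, 4 of 11 CPF libraries (replicates 3, 5, 6 and 9) lay below the lowest control in oligodendrocyte markers, and 4 (replicates 3, 5, 7 and 9) above the highest control in vessel wall and muscle markers. CPF replicate 1, lowest in let-7i-5p, lay below the lowest control in neuron, vessel wall and muscle, microglia and red blood cell markers. Its sum lay above the highest control in choroid plexus and ependyma markers and within the control range in oligodendrocyte markers. In that library miR-9a-5p, given above as most like let-7i-5p, held 34986 of the 50390 RPM of neuron markers. The low neuron sum is thus not separate from that likeness. Microglia markers (3 names) summed to 457 to 731 and 390 to 782 RPM, and red blood cell markers (4 names) to 12.6 to 65.9 and 0 to 79.5 RPM. Of 11 CPF libraries, 3 lay below the lowest control in microglia markers and 1 above the highest. For red blood cell markers, whose sums are near the floor, 4 lay below and 1 above. Of these markers 1 neuron name was at 0 in both groups, 1 microglia name in control and 1 red blood cell name in CPF libraries. Their part in the let-7 levels was not tested. In bulk tissue, fewer cells of a type and less RNA per cell cannot be told apart.

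The library codes begin with 1 or 4 in control and 3 or 6 in CPF libraries, a digit whose meaning, and whose matching between groups, the labels leave unstated. All 4 pairings of a CPF with a control digit were therefore tested with limma. No member passed in any of them (0 of 14 each, against 0.366%, 0.366%, 0% and 0.733% of 273 miRNAs for 3 against 1, 6 against 4, 3 against 4 and 6 against 1). At an unadjusted p under 0.05 the members numbered 1, 0, 0 and 2, against 4.03%, 7.69%, 6.59% and 9.16% of all miRNAs. Within groups they numbered 1 for 4 against 1 (3.66% of all) and 0 for 6 against 3 (6.96%). For the differences between digits in the CPF effect they numbered 1 under either matching (4.03% and 8.79%). let-7c-5p accounted for 5 of these 6. It averaged 202 ± 108 RPM at digit 1 (n = 5), 321 ± 67.5 at digit 4 (n = 6), 299 ± 77.1 at digit 3 (n = 6) and 291 ± 39.5 at digit 6 (n = 5). Its mean was lowest at digit 1, and the log2 difference between digits 4 and 1 inside the control group was 0.77 (95% CI 0.26 to 1.28, limma adjusted p = 0.917). Against digit 1 the CPF difference was 0.65 for digit 3 and 0.64 for digit 6 (limma adjusted p = 0.657 and 0.392). The difference of its CPF effect between digits was -0.78 when 3 was matched with 1 and 6 with 4 (limma adjusted p = 0.865). With 3 matched to 4 and 6 to 1 it was 0.76 (limma adjusted p = 0.562). let-7d-5p averaged 263 ± 60.2 RPM at digit 1 and 184 ± 26.9 at digit 6 (log2 difference -0.49, limma adjusted p = 0.530). Between digits 6 and 4, let-7i-3p had the smallest p of the members (244.9 ± 78.9 and 189 ± 50.2 RPM, log2 difference 0.35, limma adjusted p = 0.687).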

How the data were processed

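The 22 small RNA libraries from rat hippocampus were deposited by the authors as RPM, reads per 1000000 miRNA reads, per the file headers. Per the submitters' processing notes, the build was rn4 and the tools Bowtie, cutadapt 1.2, Partek 6.6 and CASAVA 1.8.2, with no roles stated. Annotation, strandedness and handling of multiply matching reads: not given in the sources used here. No coordinates are printed, since RefSeq's tables are of build GRCr8. They were used for sequences and neighbours (genes within 10 kb, 7 of the 10 miRNA names listed with let-7 clusters).

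13 names on 29 rows were summed. The value of 1 read was the most frequent low value of a library, and 92.8 to 98.0% of values up to 20 reads were whole within 0.1 read. The main test was limma-trend (limma 3.58.1, R 4.3.3) on log2(RPM + 1), two-sided, over the 273 miRNAs that reached 10 RPM in 11 or more libraries, with Benjamini-Hochberg adjustment over all of them and a threshold of 0.05. Fold changes are on this scale and are left out for names under 3 reads in both groups. The added 1 RPM understates changes of low names that have no library at 0. It is worth less than 1 read, so a library at 0 can enlarge a change instead. For let-7b-5p the log2 fold change was 0.65, 0.56 and 0.28 with 0.5, 1 and 10 RPM added. In 9 libraries parts of reads broke a stricter step rule, so edgeR 4.0.16, DESeq2 1.42.0 and limma-voom were run as alternatives on rounded reads of 13 libraries (5 control, 8 CPF). Mean log2 ratios were compared with 100000 random relabellings (permutation test, two-sided, scipy 1.17.1), adjusted over the 5 ratios. The limma fit was tested on simulated data.

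Named miRNAs are all members, the cluster neighbours, the antisense names, the 5 miRNAs most like let-7i-5p and the summed family, and members of smallest p. Members, lists and tests were chosen with earlier results of these data known. The fit on the same 13 libraries with limma was added after the data were seen.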

Additional observations from a re-analysis of the deposited data

Results flagged for a closer look

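In control libraries that list them (n = 10), 2 members under the floor had a highest library apart from the others. let-7a-2-3p stood at 13.1 RPM in a single control library, which is 1 read, and at 0 in the other 9. let-7c-2-3p stood at 27.5 RPM, or 2 reads, against 13.1 RPM in the next library and 0 in 8. In CPF libraries let-7c-2-3p was detected in 8 of 11. Its sequence is the same as that of let-7a-1-3p, so its reads cannot be told from those of that name. Only the 4 names with n = 10 in control were examined in this way, and where nearly all values are 0 a single read stands apart by construction, so neither says more than that 1 or 2 reads were seen. The usual rate of about 1 in 20 by chance does not hold for such groups.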

How the results depend on the processing

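No member passed in any setting run, though edgeR and limma-voom tested only 8 members. The counts over all miRNAs were 0 with edgeR and RLE factors (13 at an unadjusted p under 0.05), 1 with DESeq2 and 0 with limma (14 at that unadjusted level) in the same 13 libraries, against 2 with limma in all 22, 2 with edgeR's TMM and, leaving out single libraries, 2 to 3. These fits hold fewer samples. Signs of members that did not pass turned in the 13 libraries. With edgeR's TMM let-7a-5p was at 0.026, let-7c at 0.084 and let-7i-5p at 0.033, and with RLE let-7c was at 0.036. With DESeq2 let-7b-3p was at -0.18 and let-7c at 0.045. With limma-voom let-7a-5p was at 0.048, let-7c at 0.069 and let-7i-5p at 0.033, and with limma let-7a-5p was at 0.040, let-7b-3p at -0.32 and let-7c at 0.034. Without CPF replicates 7, 8 and 9 let-7a was at -0.0083 and its ratio difference to let-7a-5p at -9.5e-05. When each library was left out, let-7a-5p ran from -0.11 to 0.048, let-7b-5p from -0.025 to 0.71 and let-7d-3p from -0.17 to 0.014. The ratio differences ran from -0.23 to 0.57 for let-7b and from -0.23 to 0.034 for let-7d. Other members kept their sign in these leave-outs. Digit 6 against 4 called 3 miRNAs with pseudocount 10 and 0 with edgeR, and 3 against 1 called 0 with edgeR, against 1 each with limma. The cause was not tested. Same-numbered libraries correlated at -0.09 to 0.19, over 0.1 in 2 of 11 pairs, so no sign of pairing by number was seen. Many miRNAs had few reads, so this check cannot exclude a pairing. The replicate block called 2 miRNAs and 0 members. At the depth of these libraries every member but let-7i-5p and let-7f-5p averaged 23.5 reads or fewer.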

Other observations

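Members did not follow each other closely across libraries. Among the 13 names above the floor, Spearman correlations over 22 libraries had a median of 0.08 across 78 pairs and ran from -0.51 (let-7e-5p with let-7i-3p) to 0.59 (let-7d-5p with let-7e-5p). Nearly all of these names had few reads, and all points share their library's total. let-7i-5p had correlations of 0.58 with miR-98-5p, 0.56 with let-7a-5p and 0.51 with let-7c, its 3 highest. These are descriptions of the libraries, given without a test.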
